A study of Mus musculus with 22 samples.

Results

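The sinusoidal membrane is the face of the hepatocyte that meets the portal and arterial blood, and 9 genes that encode its uptake carriers and efflux pumps are described here: Slc10a1, Slco1a1, Slco1a4, Slco1b2, Slco2b1, Slco2a1, Slc22a7, Abcc3 and Abcc4. They were taken by symbol in GRCm38, the mouse genome build of the deposited counts. All 9 had a row among the 15448 genes of the count table, and all 9 were among the 14785 genes that passed the filter on low counts. Of the 9, 7 encode uptake carriers and 2 encode efflux pumps.

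The livers came from 22 male mice of the CD2F1 strain, an F1 cross of BALB/c with DBA/2, all of wild-type (WT) genotype, and their polyA RNA was sequenced. The C26-TDCA group (n = 8) received C26 cells, a mouse colon carcinoma line used to induce cancer cachexia, and 10 mg/kg taurodeoxycholic acid (TDCA) by a daily injection into the peritoneum. The C26 group (n = 8) received C26 cells, and the design text calls these mice untreated. Whether they received vehicle injections is not stated; if they did not, TDCA and the daily injection cannot be told apart in C26-TDCA against C26, nor the tumour and the vehicle in C26 against CT. The CT group (n = 6) was sham-injected and received vehicle, and held no tumour. The title of the series asks about a bile acid made with the help of gut bacteria and the cholesterol of the liver in cachexia. The sources used here do not give the age of the mice, the site of the tumour or the number of treatment days.

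Bile acids circulate between liver and gut. They are secreted into bile, reabsorbed in the intestine, and taken from portal blood into hepatocytes across the sinusoidal membrane. Slc10a1 (NTCP) carries taurine- and glycine-conjugated bile acids into the cell together with sodium, and TDCA, the taurine conjugate of deoxycholic acid, is a bile acid of this conjugated kind. The Slco genes encode organic anion transporting polypeptides (OATPs). As a family these take up bile acids, bilirubin, steroid conjugates, thyroid hormones and drugs without sodium, but Slco2a1 encodes the prostaglandin transporter. Slc22a7 encodes the organic anion transporter OAT2. Abcc3 (MRP3) and Abcc4 (MRP4) are ATP-driven pumps that return conjugated anions and bile acids from the hepatocyte to blood, and both are known to rise in rodent liver when bile flow is blocked.

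The genes lie on 7 chromosomes, and the 3 liver OATP genes Slco1b2, Slco1a4 and Slco1a1 are neighbours on chromosome 6 (GENCODE M21, GRCm38). Slco1b2 spans 141629518 to 141686646 on the plus strand, Slco1a4 spans 141805440 to 141856199 on the minus strand, and Slco1a1 spans 141907282 to 141946962 on the minus strand. Slc10a1 spans 80953183 to 80968705 of chromosome 12 on the minus strand. Slco2b1 spans 99657804 to 99711340 of chromosome 7 on the minus strand, and Slco2a1 spans 102988712 to 103096002 of chromosome 9 on the plus strand. Slc22a7 (chromosome 17, 46432183 to 46438457), Abcc3 (chromosome 11, 94343295 to 94392997) and Abcc4 (chromosome 14, 118482692 to 118706219) are on the minus strand.

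Counts for the paired genes Slco1a1 and Slco1a4 could be told apart over nearly all of their length: 1.64% of the windows of 50 bases in Slco1a1 transcripts and 1.61% of those in Slco1a4 transcripts also occur in another gene. The genes that shared the most windows with each were other Slco1a genes. In Slco2b1, 5.89% of the windows are shared with the overlapping antisense genes Gm15635 and Gm34280. In the C26-TDCA, C26 and CT groups Gm15635 averaged 1.89, 1.28 and 2.27 CPM and Gm34280 averaged 0.324, 0.224 and 0.936 CPM, well under the Slco2b1 values given below. Whether the count used strand is not given in these sources.

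RefSeq promoter windows on GRCm38.p6, from 250 bases before to 50 after the annotated start, were available for 7 of the 9 genes, all but Slc22a7 and Abcc3. The 5 windows printed here, 5′ to 3′ on the strand of the gene, belong to the 4 uptake genes that fell most in tumour-bearing mice and to Abcc4, the pump that rose. Capitals mark matches on either strand to 4 motifs: GTTAAT (only part of an HNF1 element), AGGTCA (only part of most nuclear receptor elements), TTCNNNGAA (STAT element) and TGACNNNGC (antioxidant response element).
Slc10a1, chr12:80968656-80968955, minus strand: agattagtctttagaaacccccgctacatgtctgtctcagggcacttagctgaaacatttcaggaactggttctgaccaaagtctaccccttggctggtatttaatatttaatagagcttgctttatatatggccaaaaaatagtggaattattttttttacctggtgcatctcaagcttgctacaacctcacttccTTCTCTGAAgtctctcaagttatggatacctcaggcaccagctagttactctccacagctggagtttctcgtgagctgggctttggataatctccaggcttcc
Slco1a1, chr6:141946913-141947212, minus strand: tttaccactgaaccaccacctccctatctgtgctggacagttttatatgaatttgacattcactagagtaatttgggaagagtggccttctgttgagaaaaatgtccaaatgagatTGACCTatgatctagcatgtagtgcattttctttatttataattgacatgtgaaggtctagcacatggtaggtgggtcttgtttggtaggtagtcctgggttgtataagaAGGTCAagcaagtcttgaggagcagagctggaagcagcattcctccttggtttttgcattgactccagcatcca
Slco1a4, chr6:141856171-141856470, minus strand: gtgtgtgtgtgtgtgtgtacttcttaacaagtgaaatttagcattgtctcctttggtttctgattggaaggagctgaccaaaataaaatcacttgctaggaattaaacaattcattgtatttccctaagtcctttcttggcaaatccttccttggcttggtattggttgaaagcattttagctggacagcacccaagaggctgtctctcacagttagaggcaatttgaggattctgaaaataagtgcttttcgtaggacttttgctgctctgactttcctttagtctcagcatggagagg
Slco1b2, chr6:141629268-141629567, plus strand: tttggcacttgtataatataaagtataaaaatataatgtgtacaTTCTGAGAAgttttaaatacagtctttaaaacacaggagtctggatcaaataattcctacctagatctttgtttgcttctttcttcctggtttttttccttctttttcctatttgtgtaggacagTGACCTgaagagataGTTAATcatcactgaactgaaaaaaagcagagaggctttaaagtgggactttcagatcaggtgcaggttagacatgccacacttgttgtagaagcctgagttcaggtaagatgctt
Abcc4, chr14:118706170-118706469, minus strand: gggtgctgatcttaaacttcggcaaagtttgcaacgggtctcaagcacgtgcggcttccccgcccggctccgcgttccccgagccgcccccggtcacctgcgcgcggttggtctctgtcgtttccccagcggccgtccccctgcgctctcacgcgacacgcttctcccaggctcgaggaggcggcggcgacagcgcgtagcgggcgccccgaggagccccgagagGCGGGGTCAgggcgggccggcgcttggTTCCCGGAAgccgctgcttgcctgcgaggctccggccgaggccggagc

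The window of Slc10a1 held 1 STAT match, whose first base lay at -53 from the start, and that of Slco1a1 held 2 nuclear receptor matches at -134 and -24. Slco1b2 had a STAT match at -206, a nuclear receptor match at -81 and an HNF1 match at -66. Abcc4 had an antioxidant response match at -25 and a STAT match at position 3 of the transcript. Slco1a4 held none of the 4 motifs, nor did the windows of Slco2b1 and Slco2a1 (not printed), and the window of Slco2a1 lies 19775 bases from the GENCODE start of that gene. No match overlapped another. Among all 32851 windows of this length in the RefSeq table, 7.10% held GTTAAT, 16.3% held AGGTCA, 8.30% held TTCNNNGAA and 12.4% held TGACNNNGC. A match is a run of letters and no evidence of binding.

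The libraries held 20.52 to 28.26 M counts in the C26-TDCA group, 17.51 to 28.13 M in the C26 group and 16.51 to 25.26 M in the CT group, so that 3 counts were at most 0.179 CPM (counts per 1 M, after TMM scaling). On principal component 1 of the whole table (60.7% of the variance), livers of tumour-bearing mice scored 4.01 to 51.5 and CT livers -92.7 to -85.0. Within C26, mouse 2 lay nearest to CT on this axis (4.01) and mouse 1 farthest from it (51.5). All 10 hepatocyte markers on the list used were in the table, and none was at 0 in any group. All pairs of libraries within a group differed by more than sampling noise. The make-up of the libraries differed between groups. The 20 most abundant genes took 34.8 to 39.2% of counts in C26-TDCA, 33.1 to 39.9% in C26 and 21.6 to 21.9% in CT. Mitochondrial transcripts took 3.21 to 3.89%, 2.92 to 4.15% and 5.59 to 6.18% in these groups. Fold changes against CT thus rest on scaling across this difference.

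In C26 livers most of the uptake carriers and the efflux pump Abcc3 were lower than in CT livers, and the other pump, Abcc4, was higher. Slco1a1 and Slco1a4 were lower by 18.4-fold and 9.22-fold, Slc10a1, Abcc3 and Slco1b2 by 2.67-fold, 2.56-fold and 2.29-fold, and Slco2b1 by 1.42-fold. Abcc4 was 2.03-fold higher and Slco2a1 was 1.36-fold higher. Slc22a7 was the 1 gene of the 9 that did not pass the test. The comparison was made with edgeR's quasi-likelihood F test on all 14785 genes, with Benjamini-Hochberg adjustment and a threshold of 0.05. In all, 6 of the 9 genes were lower and 2 higher, where 29.2% of all genes tested were lower and 28.9% higher; with either direction together, 8 of 9 were called against 58.1% of all genes. A change beyond 1 log2 unit was called in 6 of the 9 genes, against 18.1% of all genes. The median log2 fold change of the 9 genes was -1.19, and that of all genes was 0.00.

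**Figure D1:**
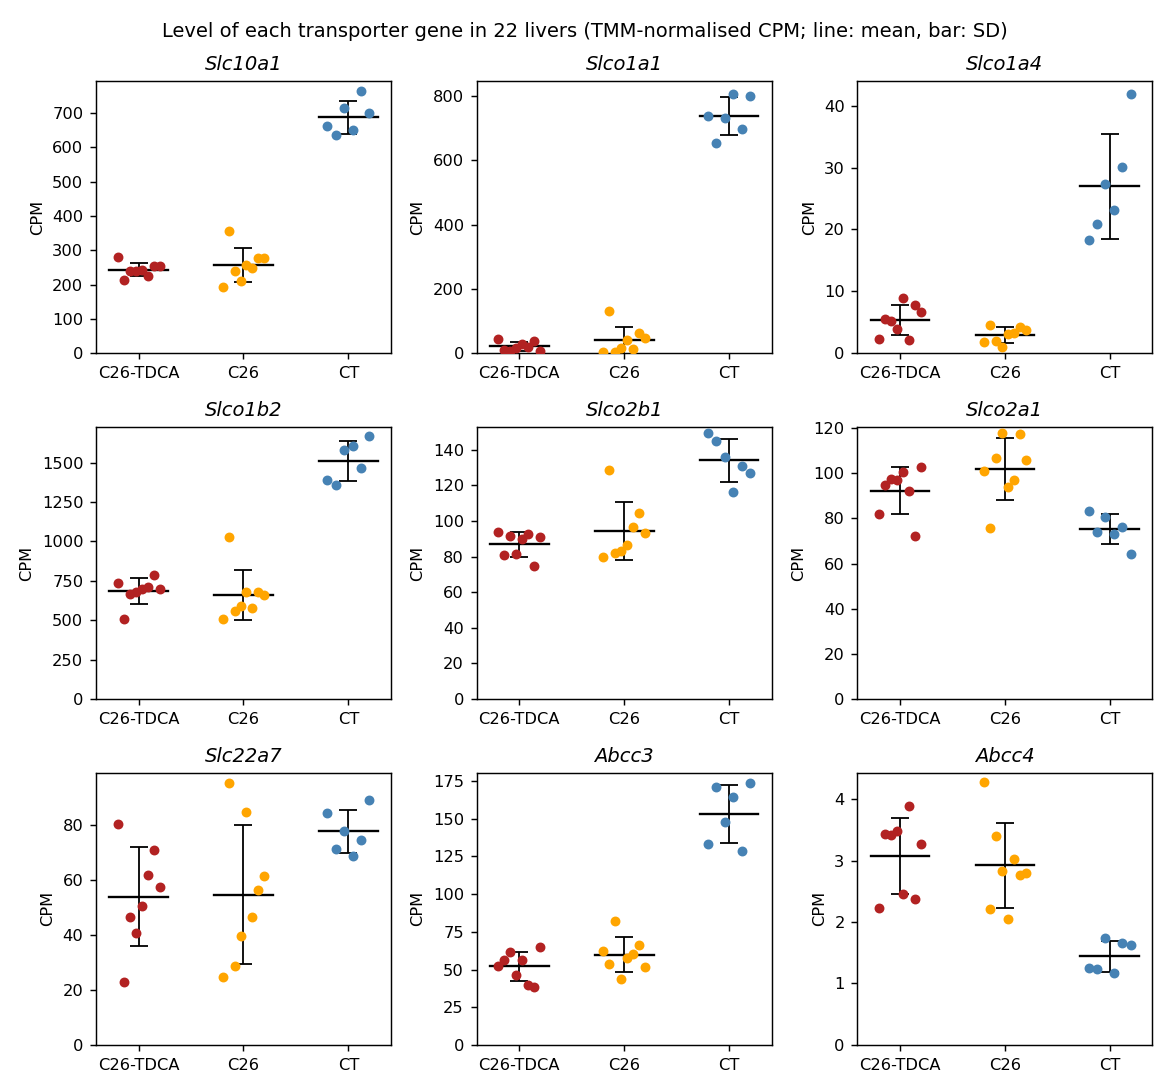
TMM-normalised CPM of each of the 9 genes in each liver, with the C26-TDCA, C26 and CT groups from left to right; points are mice, the line is the group mean and the bar its SD. For Slc10a1, Slco1a1, Slco1a4, Slco1b2 and Abcc3 every CT liver lies above every liver of the tumour-bearing mice, and for Abcc4 every CT liver lies below them.

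Slc10a1, the sodium-dependent bile acid carrier, had 195, 253 and 355 CPM (lowest, median and highest mouse) in C26 livers, against 636, 681 and 764 CPM in CT livers. The highest C26 liver, that of mouse 2, was thus lower than every CT liver. The log2 fold change was -1.42 (SE 0.10, 95% interval -1.62 to -1.21, adjusted p = 1.03e-11 by edgeR). In these bulk samples, fewer hepatocytes and less RNA per hepatocyte cannot be told apart.

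Slco1a1 encodes OATP1A1, which in mice is far more abundant in male than in female liver and depends on androgen and growth hormone. It had the widest spread of the 9 genes within C26, over 35.5-fold with C26 mouse 2 and 16.8-fold without it, with 3.66, 30.4 and 130.1 CPM as the lowest, median and highest value, against 652, 734 and 806 CPM in CT livers. The groups lay far apart all the same. The 3.66 CPM of C26 mouse 1 and the 4.06 CPM of C26 mouse 3 were the lowest values, and mouse 2 was the highest. The log2 fold change was -4.20 (SE 0.60, 95% interval -5.43 to -2.97, adjusted p = 1.67e-06 by edgeR), and without C26 mouse 2 it was -4.75. The C26 mean of 40.2 ± 42.3 CPM (SD, n = 8) also moved with that mouse, to 27.4 ± 23.4 CPM (n = 7) without it, against 737 ± 59.1 CPM in CT (n = 6).

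Slco1a4 encodes OATP1A4, a mouse carrier that is induced through the xenobiotic receptors CAR and PXR. It had 1.08, 3.17 and 4.54 CPM in C26 livers, against 18.2, 25.3 and 41.9 CPM in CT livers. The ranges did not meet, and within CT the 41.9 CPM of mouse 8 stood above the 30.0 CPM of mouse 7, the next highest. Its log2 fold change was -3.20 (SE 0.30, adjusted p = 1.94e-09 by edgeR).

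Slco1b2 encodes OATP1B2, the abundant carrier of rodent hepatocytes for bilirubin, bile acids and many drugs. C26 livers had 509.7, 625 and 1026 CPM, against 1359, 1521 and 1669 CPM in CT livers. Here too C26 mouse 2 was highest, at 1026 CPM, with the next C26 liver at 679.6 CPM, and even that highest liver was below every CT liver. On the log2 scale the change was -1.19 (SE 0.12, adjusted p = 5.47e-09 by edgeR).

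Slco2b1 encodes OATP2B1, a broadly expressed carrier of sulfated steroids. Its values were 79.7, 89.8 and 128 CPM in C26 livers, against 116, 133 and 149 CPM in CT livers. The groups overlapped through C26 mouse 2, at 128 CPM, which was above the 2 lowest CT livers, while the other 7 C26 livers reached at most 104 CPM. The difference passed the test at a smaller size (log2 fold change -0.51, SE 0.09, adjusted p = 3.68e-05 by edgeR).

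Slco2a1 encodes the prostaglandin transporter, which takes up prostaglandins and is known from endothelium as well as from other cells. It moved the other way from the other Slco genes: C26 livers had 75.9, 104 and 118 CPM, against 64.5, 75.0 and 83.4 CPM in CT livers. C26 mouse 2 was the lowest of its group, at 75.9 CPM, and lay within the CT range, while the other 7 C26 livers, from 93.8 CPM upward, lay above it. Its log2 fold change was 0.44 (SE 0.09, adjusted p = 0.000226 by edgeR). Among all genes tested, 28.9% were higher in C26 than in CT. Of 13 markers of sinusoidal endothelium, 11 were also higher in C26 and none lower (median log2 fold change 0.71), and of 8 markers of other endothelium 6 were higher and none lower (0.61). Their summed levels were 498 to 818 CPM in C26 and 374 to 459 CPM in CT for the sinusoidal list, and 97.9 to 144 CPM in C26 and 68.6 to 89.2 CPM in CT for the other list, with no marker at 0. Fcgr2b and Stab1, the most abundant sinusoidal markers in C26 but not in CT, averaged 98.0 ± 13.4 and 87.0 ± 15.1 CPM in C26, against 48.0 ± 5.43 and 49.2 ± 7.50 CPM in CT. Their part in the Slco2a1 value was not tested.

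Slc22a7 (OAT2) carries organic anions and nucleotides such as cyclic GMP. Its C26 values ran from 24.7 through a median of 51.4 to 95.6 CPM, against 68.9, 76.4 and 89.3 CPM in CT. The C26 livers were spread on both sides of the CT range: mouse 2 was above it, mouse 5 (85.0 CPM) within it and the other 6 below it. The log2 fold change was -0.51 (SE 0.25, 95% interval -1.03 to 0.01, adjusted p = 0.0877 by edgeR), so a difference from CT was not called. Without C26 mouse 2 the value was -0.67 with an adjusted p of 0.0201 by edgeR, and without mouse 5 it was -0.63 with an adjusted p of 0.0378.

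The efflux pumps moved in opposite directions. Abcc3 (MRP3) exports glucuronide conjugates and bile acids, and had 43.5, 58.9 and 82.4 CPM in C26 livers, against 128, 156 and 174 CPM in CT livers. No C26 liver reached the lowest CT liver (log2 fold change -1.36, SE 0.13, adjusted p = 1.98e-09 by edgeR). Abcc4 (MRP4) exports bile acids together with glutathione, as well as cyclic nucleotides and sulfated conjugates. Per length it was the least abundant of the 9 genes in C26-TDCA and CT, and level with Slco1a4 at the low end in C26, with 2.05, 2.81 and 4.28 CPM in C26 livers, against 1.17, 1.44 and 1.73 CPM in CT livers. These levels rest on 37 to 111 counts per C26 library and 25 to 46 counts per CT library. All C26 livers lay above all CT livers (log2 fold change 1.02, SE 0.18, adjusted p = 2.42e-05 by edgeR). Groups that do not overlap were thus found in 6 of the 9 genes (5 lower, 1 higher), where 29.5% of all genes tested had such groups.

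**Figure D2:**
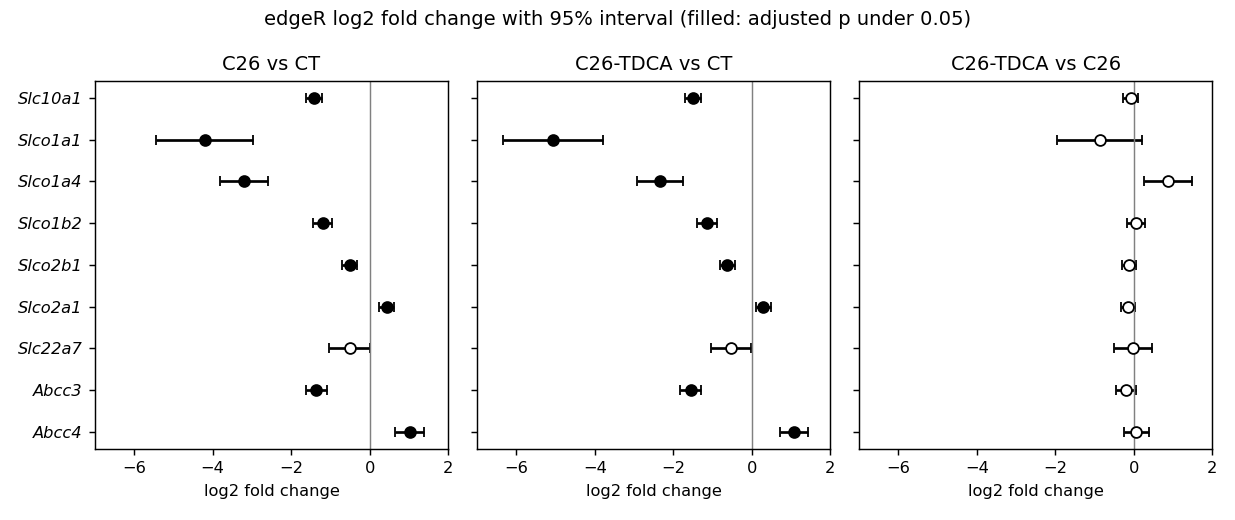
Log2 fold change of each of the 9 genes with its 95% interval from edgeR in 3 panels, C26 over CT, C26-TDCA over CT and C26-TDCA over C26; filled points have an adjusted p under 0.05. In the panels against CT the points run from Slco1a1 far on the negative side to Abcc4 near 1, and in the panel of C26-TDCA over C26 no point is filled.

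Levels of different genes were compared per kb of exon, the length of all annotated exons of a gene joined. In C26-TDCA livers the order began with Slco1b2 (139 ± 16.4 CPM per kb, SD, n = 8) and Slc10a1 (111 ± 9.10), which overlapped, and Slco1a1 stood 7th at 4.15 CPM per kb, behind Slco2a1 at 6.82. In C26 livers the order of these per-kb levels was Slco1b2 (134 ± 32.4 CPM per kb), Slc10a1 (117 ± 22.3), Slc22a7 (26.1), Slco2b1 (15.8), Abcc3 (10.5), Slco1a1 (7.62), Slco2a1 (7.53), Slco1a4 (0.462) and Abcc4 (0.457). Without C26 mouse 2 the last 2 changed places, at 0.427 for Slco1a4 and 0.473 for Abcc4. Neighbours in the C26 order were separated only between Slc10a1 and Slc22a7 and between Slco2a1 and Slco1a4, and all other neighbours overlapped.

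In CT livers Slc10a1 (313 ± 21.7 CPM per kb) and Slco1b2 (307 ± 25.3 CPM per kb) were the most abundant and overlapped (SD, n = 6). Slco1a1 followed at 139.7 ± 11.2 CPM per kb, then Slc22a7 at 37.0, Abcc3 at 26.9, Slco2b1 at 22.5, Slco2a1 at 5.56, Slco1a4 at 4.20 and Abcc4 at 0.226 CPM per kb. Of these neighbours, Abcc3 overlapped with Slco2b1 and Slco2a1 overlapped with Slco1a4, and the others did not. Slco1a1 stood 6th in C26, level with Slco2a1, against 3rd in CT. Without C26 mouse 2 it stood 7th in C26 (5.19 CPM per kb, with Slco2a1 at 7.81), as it did with the longest transcript as the length. With the longest transcript as the length in place of the joined exons, Slco2a1 came 5th in both groups of tumour-bearing mice and Slco1b2 came before Slc10a1 in CT (457 and 393 CPM per kb); the cause of such shifts is the divisor, which for Slco2a1 is 13545 bases of joined exons against 7122 bases of its longest transcript.

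Summed over the 7 uptake genes, the per-kb level was 302 ± 33.6 in C26-TDCA livers (235 to 346, n = 8), 309 ± 74.4 in C26 livers (225 to 468, n = 8) and 828 ± 45.1 in CT livers (756 to 883, n = 6). No liver of a tumour-bearing mouse reached the lowest CT sum. The C26 sum was 286 ± 40.5 without mouse 2. The make-up of the sum differed as well. Slco1a1 made up 1.32% ± 0.767 of it in C26-TDCA, 2.12% ± 1.75 in C26 and 16.9% ± 0.972 in CT, while Slco1b2 made up 46.0% ± 1.68, 43.5% ± 1.80 and 37.0% ± 1.56 in these groups. The share of Slc10a1 was nearly level, at 36.9% ± 2.31 in C26-TDCA, 38.3% ± 2.48 in C26 and 37.8% ± 2.04 in CT. Slc22a7 took 8.31% ± 2.06 in C26-TDCA and 8.13% ± 2.37 in C26, against 4.48% ± 0.404 in CT. These shares are of transcript, and say nothing of transport capacity.

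**Figure D3:**
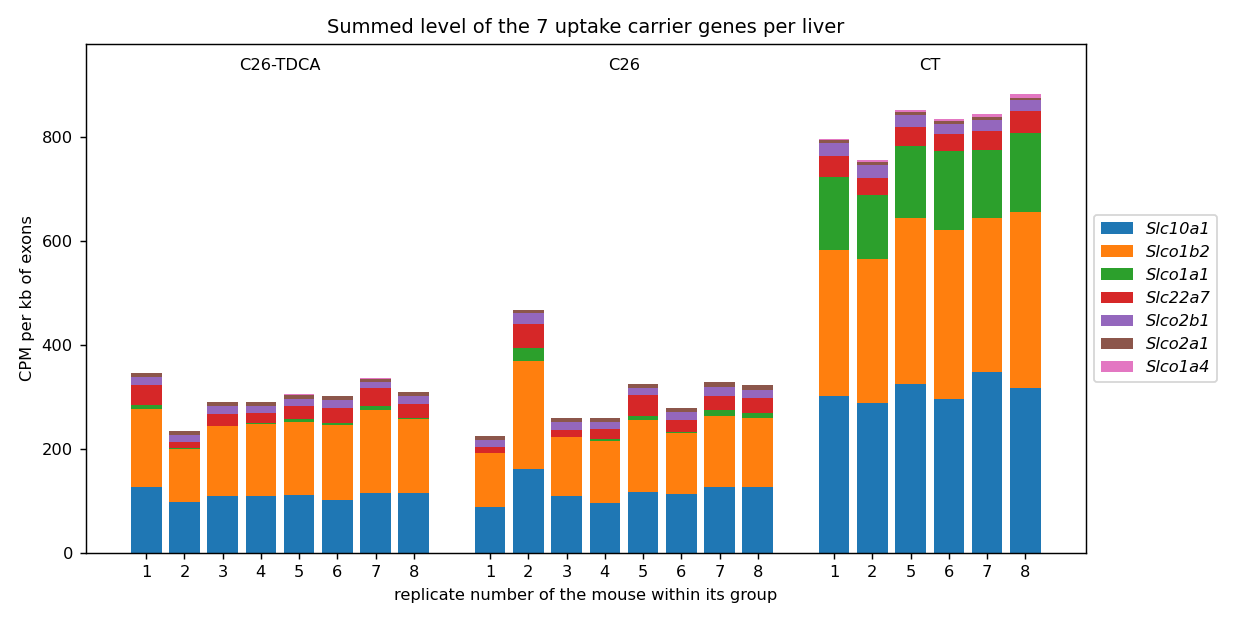
Summed level of the 7 uptake genes in CPM per kb of exons, 1 bar per liver, divided by gene, with the C26-TDCA, C26 and CT livers from left to right. The CT bars reach 756 to 883, those of the tumour-bearing mice 225 to 468, and the Slco1a1 part is broad in the CT bars only.

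C26-TDCA livers were next compared with C26 livers, to ask whether the bile acid changed carrier levels in mice with tumours. No gene of the 9 passed the test in edgeR, and DESeq2 called none either. The background was low in this comparison: 1.73% of all genes tested were higher and 0.237% lower, together 1.97%, and at an unadjusted p under 0.05 it was 15.8% of all genes and 1 of the 9. The groups overlapped for all 9 genes, where 0.149% of all genes had groups that did not overlap. The median log2 fold change was -0.08 for the 9 genes and -0.01 for all genes.

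The 1 gene with an unadjusted p under 0.05 was Slco1a4. C26-TDCA livers had 2.17, 5.39 and 9.01 CPM (lowest, median and highest), against 1.08, 3.17 and 4.54 CPM in C26 livers. Of the 8 C26-TDCA livers, 5 were above the highest C26 liver, and the other 3 lay within the C26 range. The log2 fold change was 0.87 (SE 0.29, 95% interval 0.26 to 1.47, unadjusted p = 0.00665, adjusted p = 0.131 by edgeR). Over the 25 alternative fits of this comparison the log2 fold change was 0.71 to 0.99 and the adjusted p 0.0499 to 0.333. Both groups remained below every CT liver.

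Slco1a1 had a log2 fold change of the same size in the other direction, -0.87, with a wide interval of -1.95 to 0.21 (SE 0.52, adjusted p = 0.442 by edgeR). Its C26-TDCA values were 6.38, 18.0 and 46.0 CPM, against 3.66, 30.4 and 130.1 CPM in C26. The C26-TDCA values lay within the range of the C26 values, and without C26 mouse 2 the log2 fold change was -0.32. For the best measured genes the intervals were narrow. The difference was -0.08 for Slc10a1 (95% interval -0.27 to 0.11), 0.05 for Slco1b2 (-0.17 to 0.28), -0.12 for Slco2b1 (-0.29 to 0.06) and -0.14 for Slco2a1 (-0.32 to 0.03), each in log2 units. These intervals end within 0.32 log2 units of 0 on either side. For the pumps it was -0.20 for Abcc3 (-0.44 to 0.04) and 0.07 for Abcc4 (-0.25 to 0.38). Slc22a7, at -0.02, had the interval -0.51 to 0.47, which leaves room for a change in either direction.

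The C26-TDCA livers were also compared with CT, a comparison that shares the CT livers with that of C26. Again 6 of the 9 genes were lower and 2 higher, where 28.2% of all genes were lower and 28.7% higher, together 57.0%. A change beyond 1 log2 unit was called in 6 of the 9 genes, against 18.3% of all genes. For Slc10a1, C26-TDCA livers had 214, 242 and 280.2 CPM, against 636, 681 and 764 CPM in CT (log2 fold change -1.49, SE 0.10, adjusted p = 3.78e-12 by edgeR). The C26-TDCA values of Slc10a1 were closer together than the C26 values. Their coefficient of variation was 8.21% in C26-TDCA and 19.0% in C26, or 13.0% in C26 without mouse 2. This was not particular to Slc10a1: Slco1b2 had 11.8% in C26-TDCA and 24.2% in C26, but 10.9% in C26 without mouse 2. Of the 9 genes, Slco1a4 alone had the wider spread in C26-TDCA (46.1%, against 41.6% in C26). Differences in spread were not tested. Slco1a1 was 33.6-fold lower than in CT (log2 fold change -5.07, SE 0.62), Slco1a4 was 5.05-fold lower (-2.34, SE 0.28), and Slco1b2 was 2.20-fold lower (-1.14, SE 0.12), at 509, 700.4 and 789 CPM. These 4 genes had groups that did not overlap.

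Slco2b1, at 74.6, 90.3 and 93.7 CPM in C26-TDCA livers, was below every CT liver, which was not so in the C26 group. Its log2 fold change against CT was -0.62 (SE 0.09, adjusted p = 2.40e-06 by edgeR). Abcc3 had 38.6, 54.2 and 65.2 CPM in C26-TDCA (log2 fold change -1.56, SE 0.13), and Abcc4 had 2.23, 3.35 and 3.90 CPM (1.08, SE 0.18), both apart from CT. Slco2a1, at 72.2, 96.0 and 103 CPM, overlapped with CT and passed the test with a small difference (0.29, SE 0.09, adjusted p = 0.00791 by edgeR). With the trend of counts on transcript length and GC removed, the Slco2a1 difference was 0.11 with an adjusted p of 0.208. Slc22a7 was not called (log2 fold change -0.53, SE 0.25, adjusted p = 0.0780 by edgeR), at 22.9, 54.0 and 80.4 CPM. Without C26-TDCA mouse 1, whose 80.4 CPM was the highest of its group, the Slc22a7 value was -0.64 with an adjusted p of 0.0376. In all, 7 of the 9 genes had groups that did not overlap (6 lower, 1 higher), against 31.6% of all genes.

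The genes were also compared by how the mice of a group differed from each other. For each of the 36 pairs of genes, the deviations of the 22 livers from their group means (log2 CPM) were correlated, with p-values from 100000 permutations within groups, two-sided and adjusted over the 36 pairs. By Pearson's r 9 pairs had an adjusted p under 0.05, and 7 of these also by Spearman's rho. Such a share was not computed for pairs of other genes. The correlations are thus not shown to be particular to these transporters. The closest pair was Slco1b2 and Slc22a7, with r = 0.842 and rho = 0.793 (permutation p = 2e-05, adjusted p = 0.00072; rho permutation p = 5e-05, adjusted p = 0.0009). Without the 2 livers farthest out for Slco1b2, C26 mouse 2 and C26-TDCA mouse 2, r was 0.790. In each pair, the livers to leave out were chosen by the deviations of only 1 gene. Slco1a1 was correlated with Slc22a7 (r = 0.803, rho = 0.805, adjusted permutation p = 0.00225 and 0.00612; r = 0.690 without C26 mice 1 and 2) and with Slco1b2 (r = 0.764, rho = 0.784, adjusted permutation p = 0.0012 and 0.0009; r = 0.605 without those mice).

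Slc10a1 had r = 0.827 with Slco1b2 (rho = 0.677, adjusted permutation p = 0.00108 and 0.0132), and r = 0.608 without C26 mice 1 and 2. With Slc22a7 it had r = 0.763 and rho = 0.728 (adjusted permutation p = 0.00228 and 0.00621; r = 0.621 without them), and with Slco1a1 r = 0.735 and rho = 0.651 (0.0103 and 0.0258; r = 0.495 without them). The correlation of Slc10a1 with Slco2b1 (r = 0.668, rho = 0.370, adjusted permutation p = 0.0285 and 0.254) rested on C26 mice 1 and 2, since r was 0.320 without them. Abcc4 was inversely correlated with 2 of the carriers. It had r = -0.721 and rho = -0.643 with Slco1a1 (adjusted permutation p = 0.00228 and 0.0184; r = -0.601 without C26 mice 1 and 2) and r = -0.660 and rho = -0.560 with Slc22a7 (0.0103 and 0.0508; r = -0.584 without C26 mouse 1 and C26-TDCA mouse 2). The rho of this last pair lay at the threshold: a second set of 100000 random permutations, run after the first had been seen, gave an adjusted p of 0.0492, and 8 pairs in place of 7 by both coefficients.

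**Figure D4:**
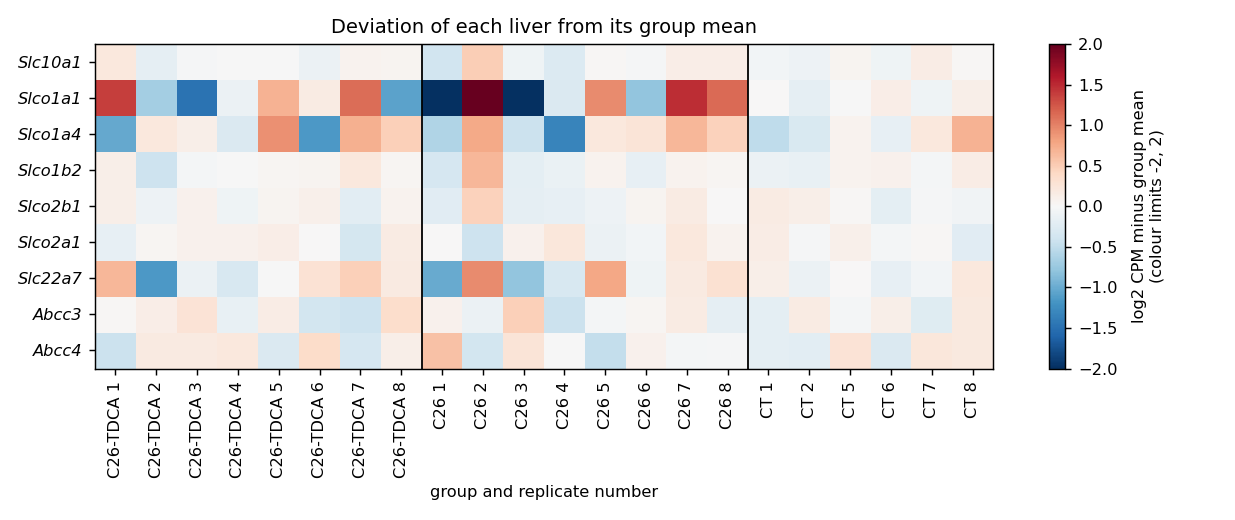
Deviation of each liver from its group mean in log2 CPM for each of the 9 genes, red above and blue below the mean, with colours limited to -2 and 2 and the C26-TDCA, C26 and CT livers from left to right. C26 mouse 2 is red for Slc10a1, Slco1a1, Slco1a4, Slco1b2, Slco2b1 and Slc22a7 and blue for Slco2a1 and Abcc4, and the CT livers are pale for most genes.

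The livers at the ends of this pattern can be named. C26 mouse 2 had the highest C26 value of Slc10a1 (355 CPM), Slco1a1 (130.1 CPM), Slco1a4 (4.54 CPM), Slco1b2 (1026 CPM), Slco2b1 (128 CPM) and Slc22a7 (95.6 CPM), and the lowest of Slco2a1 (75.9 CPM). C26 mouse 1 had the lowest C26 value of Slc10a1 (195 CPM), Slco1a1 (3.66 CPM), Slco1b2 (509.7 CPM), Slco2b1 (79.7 CPM) and Slc22a7 (24.7 CPM), and the highest of Abcc4 (4.28 CPM). In C26-TDCA, mouse 2 had the lowest Slc10a1 (214 CPM), Slco1b2 (509 CPM) and Slc22a7 (22.9 CPM). These mice also differed in the make-up of their libraries. The 20 most abundant genes took 33.1% of counts in C26 mouse 2, the lowest of its group, 39.7% in C26 mouse 1 and 39.2% in C26-TDCA mouse 2, the highest of its group. The part of library make-up in the correlations was not tested.

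Similar genes were sought among 9054 other genes with an established symbol and a mean of at least 5 CPM. Those whose deviations were most like those of each carrier were found by Pearson's r over the 22 livers, as a description. For Slco1a1 they were Cyp2f2 (r = 0.958), a cytochrome P450, Mup21 (0.945), a major urinary protein, and Ces1f (0.944), a carboxylesterase. For Slco1b2 they were Cyp3a59 (0.924), complement C9 (0.916) and Ugt2b1 (0.905), a UDP-glucuronosyltransferase. For Slc22a7 they were Mup-ps13 (0.949), Bbox1 (0.941), the last enzyme of carnitine synthesis, and Klkb1 (0.932), which encodes plasma prekallikrein. Mup21 and Mup-ps13 belong to a family of near-identical copies, so their counts are uncertain.

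Slco1a4 was most like Rsrp1 (0.828) and Cyp2e1 (0.817), a cytochrome P450. Slc10a1 was most like Pdk1 (0.877), a pyruvate dehydrogenase kinase, Ugt1a9 (0.864) and Pyroxd2 (0.855), and Slco2b1 most like Pm20d1 (0.873), Akap1 (0.817) and Pklr (0.813), the pyruvate kinase of liver. Slco2a1 was nearest to Caskin2 (0.874), Cyfip2 (0.857) and Pacs2 (0.818). The pumps had looser neighbours, with Ssh1 (0.734), Plekhm1 (0.723) and Tln2 (0.719) for Abcc3, and Ctso (0.829), Acpp (0.812) and Tbc1d4 (0.799) for Abcc4. By Spearman's rho some of these genes stood further down among the 9054: Ugt1a9 and Pyroxd2 ranked 190 and 193 for Slc10a1 (rho = 0.624 for both), and Rsrp1 ranked 23 for Slco1a4.

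Other transporters of the same membrane changed in both directions. Of 18 measured genes of this list, 5 were higher and 9 lower in C26 than in CT (median log2 fold change -0.26, against 0.00 for all genes). Among all genes tested, 28.9% were higher and 29.2% lower, so the share of higher genes in this list was near that of all genes. Slc2a2, the glucose carrier GLUT2, had 49.1 ± 28.1 CPM in C26 and 416 ± 26.4 CPM in CT (log2 fold change -3.08, SE 0.31), and the organic anion carrier gene Slc22a30 had 47.7 ± 16.2 CPM in C26 and 284.7 ± 36.3 CPM in CT (-2.58, SE 0.17). Abcc6 was lower by less (-0.92, SE 0.09). The higher genes with the largest changes, named after their values were seen, were Abcc5 (1.45, SE 0.20), Slco3a1 (1.31, SE 0.14) and Abca1, the cholesterol exporter (0.91, SE 0.18). The transporters of the canalicular membrane, which faces the bile, were mostly lower, with 1 of 11 higher and 9 lower (median -0.93). Abcc2, which pumps conjugated bilirubin into bile, had 208 ± 43.9 CPM in C26 and 560.0 ± 86.3 CPM in CT (-1.43, SE 0.12), Slc47a1, an exporter of organic cations, changed by -1.90 (SE 0.18), and Abcb4, the phospholipid exporter, by -0.94 (SE 0.09). In edgeR no gene of either list was called between C26-TDCA and C26.

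Of 24 transcription factors and receptors known to act on such transporter genes, 8 were higher and 10 lower in C26 than in CT (median log2 fold change -0.20). The shares among all genes tested were 28.9% higher and 29.2% lower. Stat3, the acute phase signal transducer, had 338 ± 21.7 CPM in C26 and 92.8 ± 7.80 CPM in CT (1.87, SE 0.07). Nfe2l2, which encodes NRF2, changed by -0.90 (SE 0.07), and Esrra, an orphan nuclear receptor of mitochondrial genes, by -1.34 (SE 0.12). Nr3c1, the glucocorticoid receptor, was the 1 gene of this list called between C26-TDCA and C26, at 71.1 ± 8.41 and 55.2 ± 8.93 CPM in C26-TDCA and C26 livers (0.37, SE 0.09, adjusted p = 0.0395 by edgeR). It was also called in 11 of 25 alternative fits, with adjusted p-values of 0.0109 to 0.379. Of all genes tested, 1.97% were called between C26-TDCA and C26 in the main fit.

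Targets of CAR and PXR, the receptors that induce Slco1a4, were lower in C26 in 14 of 14 measured genes, with a median log2 fold change of -3.18. Over 23 alternative fits, 12 to 15 of the 15 listed genes were lower. Among all genes tested, 28.9% were higher and 29.2% lower in C26 than in CT. Cyp2c55 had 0.112 ± 0.226 CPM in C26 and 5.61 ± 1.20 CPM in CT, Papss2, which makes the sulfate donor, changed by -2.17 (SE 0.18), and Ugt1a1, the bilirubin glucuronosyltransferase, by -1.60 (SE 0.14). The C26 mean of Cyp2c55 was below 0.179 CPM, the highest level that 3 counts came to in a C26 library. Of 10 targets of NRF2, the factor known to induce Abcc3 and Abcc4, 2 were higher and 5 lower (median -0.45). Hmox1, heme oxygenase 1, was higher (1.86, SE 0.12), while Ephx1 and Gstm1, detoxifying enzymes, were lower (-2.98, SE 0.20, and -3.13, SE 0.31). The part of CAR, PXR and NRF2 in the values of Slco1a4, Abcc3 and Abcc4 was not tested.

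Of 15 male-biased genes of mouse liver that depend on growth hormone, 2 were higher and 11 lower in C26 (median log2 fold change -1.65). The shares among all genes tested were 28.9% higher and 29.2% lower. Ugt2b1 changed by -3.46 (SE 0.33), Cyp2d9 by -1.77 (SE 0.15) and the complement gene C8a by 0.78 (SE 0.06). Of 15 female-biased genes on the list used, 8 were in the count table and measured, with 1 higher and 5 lower (median -2.39). Fmo2 changed by -2.97 (SE 0.23) and Acot3 by -5.00 (SE 0.41). None of these target and sex-biased lists had a gene that edgeR called between C26-TDCA and C26.

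Markers of the other cells of the liver moved with the tumour as well. Among all genes tested, 28.9% were higher and 29.2% lower in C26 than in CT. All 12 Kupffer cell markers were higher in C26 than in CT, as were 9 of 12 stellate cell markers (2 lower), 5 of 8 cholangiocyte markers, 7 of 9 markers of monocytes and neutrophils and 3 of 3 of platelets. Of 3 T and NK cell markers 2 were lower, and of 5 B cell markers 1 was lower. Summed levels were 493 to 757 CPM in C26 and 302 to 350 CPM in CT for Kupffer cells, 437 to 676 and 300.3 to 389 CPM for stellate cells, and 316 to 849 and 49.8 to 74.4 CPM for cholangiocytes. The 3 cholangiocyte markers not called were Krt19, Krt7 and Epcam (log2 fold change -0.18, -0.01 and 0.08). In the cholangiocyte sum, Spp1 alone averaged 411 ± 172 CPM in C26 and 18.8 ± 3.56 CPM in CT. These cholangiocyte genes are named after their values were seen. Among 10 hepatocyte markers 4 were higher and 3 lower. Alb, the albumin gene and the most abundant of them in CT, averaged 15181 ± 2840 CPM in C26 livers against 42189 ± 2760 CPM in CT livers, and Ttr and Cps1 were the other lower ones (log2 fold change -1.80 and -0.82); these 3 are named after their values were seen. The most abundant of them in C26 were Hpx, an acute phase protein, with 41966 ± 8003 CPM in C26 livers against 2431 ± 193 CPM in CT livers, and Fgb, a fibrinogen chain, with 33906 ± 4026 against 3792 ± 344 CPM. No marker in the table was at 0 throughout a group. Between C26-TDCA and C26 the called markers were Hgf of stellate cells (0.73, SE 0.17, adjusted p = 0.0255 by edgeR) and Apob of hepatocytes (0.38, SE 0.09, adjusted p = 0.0319). They were 1 of 12 stellate cell and 1 of 10 hepatocyte markers, and no marker of the other lists was called. Over all genes tested, 1.97% were called in that comparison. Hgf was also called in 18 of 25 alternative fits (adjusted p 0.00265 to 0.0886), and Apob in 14 of 25 (0.00453 to 0.825, log2 fold change 0.05 to 0.45). The part of cell make-up in the values of the 9 genes was not tested.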

How the data were processed

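Liver polyA RNA of 22 mice was analysed. RNA was extracted with Trizol from frozen liver and treated with DNase, per the labels' protocols. The authors deposited raw read counts per Ensembl gene, which were used as deposited. Per the submitters' processing notes, the build was GRCm38 and tools included HISAT2 2.2.1, featureCounts 2.0.3, Trimmomatic 0.40, FastQC, bcl2fastq 2.17 and DESeq2 1.42.0. The sources used here give neither the annotation release nor how multi-mapping reads were counted. Every gene of the table (15448) reached 10 counts in a library, and 15443 matched a symbol in GENCODE M21.

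Here, edgeR 4.0.16 in R 4.3.3 was run on all 22 libraries with 1 mean per group. Filtering by filterByExpr (minimum count 10) left 14785 genes and removed 663. TMM scaling and the quasi-likelihood F test were used, with Benjamini-Hochberg adjustment over all genes tested at 0.05. Standard errors were derived from the F statistic, as the size of the log2 fold change divided by its root, and intervals cover 95%. The median biological coefficient of variation was 15.1%. Log2 CPM used a prior count of 2.

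The members and all gene lists were chosen with earlier results of these data known. Named genes were the 9 members, up to 3 genes of each pathway list with the smallest p in C26 against CT and those called between C26-TDCA and C26, up to 2 most abundant markers of a described list, and per member the 3 genes with the most like deviations. Some genes that this rule names are not reported here. Alternatives were upper-quartile scaling, DESeq2 size factors, no filter, DESeq2, voomWithQualityWeights (limma 3.58.1), only the groups compared, a replicate block, removal of the length and GC trend (loess span 0.3), a fold threshold, and leaving out each library. The labels name no sequencing batch.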

Additional observations from a re-analysis of the deposited data

Results flagged for a closer look

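Each group of livers was screened for a value far from the rest, in 27 sets of 1 gene in 1 group, and 3 were found; chance alone flags about 1 set in 20. In the C26 group, mouse 2 had 130.1 CPM of Slco1a1, with the next highest liver at 61.7 CPM, a gap of 0.541 of the whole range. The same liver had 1026 CPM of Slco1b2, with the next at 679.6 CPM, a gap of 0.671 of the range. In the C26-TDCA group, mouse 2 had 509 CPM of Slco1b2, the lowest value, with the next lowest at 664 CPM and a gap of 0.555 of the range. Without C26 mouse 2 the C26 mean of Slco1b2 was 608 ± 66.0 CPM (n = 7), against 660.3 ± 159.8 CPM with it (n = 8). Without C26-TDCA mouse 2 the C26-TDCA mean of Slco1b2 was 711 ± 41.0 CPM (n = 7), against 686 ± 81.0 CPM with it.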

How the results depend on the processing

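No log2 fold change of the 9 genes that was called changed direction in any alternative. With a change beyond 1 log2 unit required as well, 1 gene in place of 2 was higher and 5 in place of 6 were lower, in C26 as in C26-TDCA against CT; Slco2a1 and Slco2b1 were the genes lost. Removing the length and GC trend left 1 higher in C26-TDCA than in CT, since Slco2a1 lost its call. Leaving out 1 library at a time, the genes lower against CT numbered 6 to 7 in both groups of tumour-bearing mice, through Slc22a7. Slc22a7 was called in 5 of 23 alternatives for C26 against CT (adjusted p 0.0153 to 0.219) and in 3 of 23 for C26-TDCA against CT (0.0212 to 0.264). Leaving out C26 mice 1 and 2 and C26-TDCA mouse 2 together, chosen after seeing the data, changed no other call.

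Replicate numbers were not taken as pairs in the main fit. Correlations of same-numbered livers were -0.08 to 0.05 in 6 pairs of C26 and CT, -0.20 to 0.34 in 8 pairs of C26-TDCA and C26, and -0.01 to 0.13 in 6 pairs of C26-TDCA and CT. Of the 8 pairs of C26-TDCA and C26, 5 had a correlation over 0.1. Differently numbered livers were not compared in this way, so whether the numbers pair the samples was not tested. With the replicate block, 1 gene in place of 0 was higher in C26-TDCA than in C26, Slco1a4 (log2 fold change 0.85, adjusted p = 0.0499 by edgeR), and no other of the 9 genes changed its call. Over all genes the block gave 247 higher and 33 lower in that comparison, against 256 and 35 without it.

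The number of all genes called between C26-TDCA and C26 depended on the setting. It was 204 higher and 48 lower with upper-quartile scaling, 41 and 4 with these groups only, 15 and 5 once the trend on length and GC was taken out, 441 and 90 with DESeq2, 409 and 59 with quality weights, 54 and 5 without C26-TDCA mouse 4, and 527 and 67 without C26 mouse 1. Upper-quartile scaling gave 4889 higher and 3708 lower genes in C26 against CT, in place of 4266 and 4321. Few counts stand behind Slco1a4 in C26 livers (29 to 98 per library) and Abcc4 (25 to 111), which limits their precision.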
